A study of Rattus norvegicus with 12 samples.

Results

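Untreated cultures of rat hippocampus supplied 6 of the 12 arrays of the series, and their transcripts are described here as a baseline. The 6 arrays were chosen by their titles, which name them as controls, and comprised 3 untreated cultures of the 26 h arm and 3 untreated cultures of the 9 h arm. All cultures came from Wistar rat embryos at embryonic day 18 and grew for 14 to 15 days in Neurobasal medium with the SM1 supplement, glutamine and gentamycin, with added glutamate during the first week. The other 6 arrays held blocked cultures of the same kind, 3 treated for 26 h and 3 for 9 h with 50 µM GYKI-52466, an antagonist of AMPA-type glutamate receptors, and 10 µM MK-801, which blocks the open channel of NMDA-type receptors. Whether the untreated cultures received the solvent of these drugs is not given in the sources used here. Total RNA of whole dishes was hybridised with no sorting of cells, so each value is a mixture over all cell types that the dissociated tissue held, and fewer cells of a type cannot be told apart from less RNA per cell.

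Hippocampal neurons in culture form synapses that release glutamate or GABA. AMPA and NMDA receptors carry most fast excitation and GABA-A receptors most fast inhibition, and the subunits that assemble into each receptor set its kinetics and pharmacology. Which subunits, channels and peptides a culture transcribes therefore defines what a drug added to it can act on. Glial cells, cells of the meninges and cells of the choroid plexus can enter such cultures at dissection and keep their own transcripts.

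The level of a gene is the log2 ratio of its processed spot signal to the 75th percentile of its array, so that 0 is the brightness exceeded by 1 in 4 probes. Where 3 levels follow a gene, they are the lowest, the median and the highest of the 6 untreated arrays, unless the cultures are named. Percentiles rank the mean level of a gene among the 15154 genes that the array measures under a current name. Probes differ in brightness for the same amount of RNA, so a percentile describes signal and no gene's abundance was set against another's. Detection is the scanner software's flag for a spot well above background, taken from any probe of the gene.

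The 6 arrays were alike overall. The correlation across genes was between 0.983 and 0.994 for arrays of the same time and between 0.974 and 0.984 for arrays of different times, and a gene's SD among cultures of 1 time had a median of 0.199 log2. Between 78.3% and 86.8% of 42877 spots were well above background. Untreated 26 h arrays were all scanned on day 2 and untreated 9 h arrays all on day 1, so that time and scan day cannot be told apart among them. Replicate 3 stood apart at both times: 32.4% of all named genes were highest and 15.1% were lowest in replicate 3 in both the 26 h and the 9 h cultures. Counts of detected genes are therefore also given without the 2 replicate 3 arrays.

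Of the 15154 named genes, 11401 (75.2%) were well above background on all 6 arrays, 1968 (13%) on some, and 1785 (11.8%) on none. Without the replicate 3 arrays 11412 were on every array and 2557 on none. The flag is permissive, as shown by 43 genes that are typical of organs other than brain. Of these, 22 of 43 (51.2%) were well above background on all 6 arrays and 11 on none, and their median percentile was 23.5. The highest was Gnat1, the rod transducin of the retina, at percentile 55, and none reached the brightest 25.0% of named genes. Any gene under percentile 55, neural ones included, was thus no brighter than the brightest of these. Alb, the serum albumin of liver, Prl, the pituitary hormone prolactin, and Tshb, the beta chain of thyrotropin, were on no array. A list is accordingly described below both by its detected members and by its members in the top 25% of levels. Among genes between percentiles 20 and 30, 53.0% were on all 6 arrays, and between 30 and 40 the share was 99.3%.

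Start regions of the genes were set beside these levels, because the letters around a start site are known in mammals to differ between widely used genes, whose promoters are often rich in CG, and genes of single tissues, which more often carry a TATA box. RefSeq promoters of the rat build GRCr8, running from 250 bases before to 50 bases after the annotated start, were matched by gene for 12384 of the 15154 genes. A promoter held a median of 20 CG pairs among the 9339 matched genes on all 6 arrays, 4 among the 1590 on some arrays and 2 among the 1455 on none. At least 10 CG pairs stood in 77.7% of promoters of genes on all 6 arrays, in 25.5% for genes on some and in 12.4% for genes on none, against 63.3% of all promoters. The letters TATAAA on either strand stood in 8.16%, 21.2% and 26.9% of promoters in the same order, against 12% of all. By level, the share with at least 10 CG pairs was 19.3% in the lowest 25% of genes, then 59.5% and 83.4%, and 89.9% in the top 25%.

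**Figure D1:**
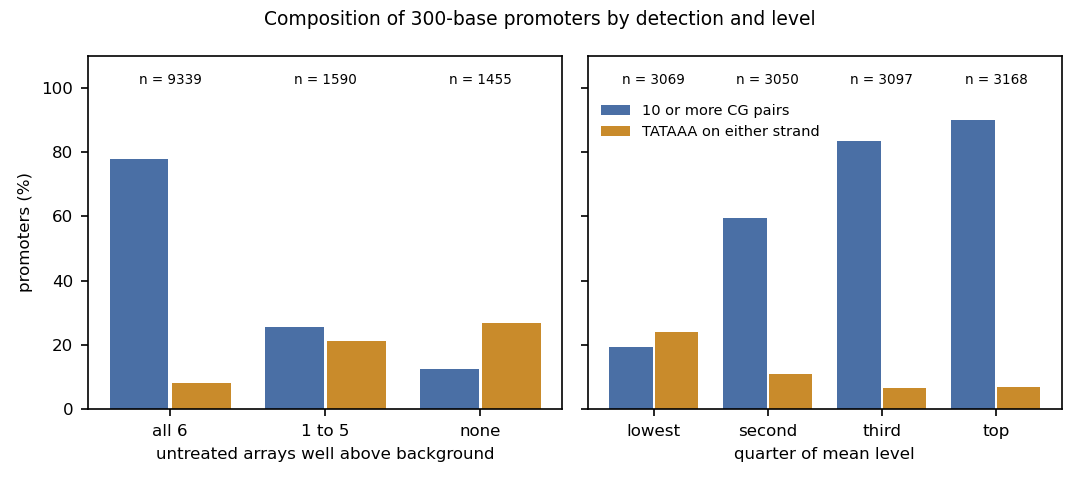
Share of 300-base promoters (y axis, percent) that hold 10 or more CG pairs or the letters TATAAA, for genes grouped by the number of untreated arrays on which they were well above background (left) and by mean level in 4 equal classes (right). The CG share is 77.7% for genes on all 6 arrays and 12.4% for genes on none, and it is higher in each higher class of level.

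Individual genes did not follow these shares one by one. Of the 43 genes of other organs, 29 had a promoter in the table, and 1 of them held at least 10 CG pairs while 14 held TATAAA. Of 13 measured Hox genes, which set the identity of hindbrain and trunk, 8 had a promoter and 6 of these held at least 10 CG pairs, although only Hoxd4 was on all 6 arrays. Of 19 GABA-A receptor genes, 14 had a promoter and 7 of these held at least 10 CG pairs.

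The sequences below show both cases, with each CG pair in capitals. Gabra5, the alpha5 subunit of extrasynaptic GABA-A receptors of the hippocampus (chr1:117516557-117516856 on the minus strand), held 42 CG pairs and was on all 6 arrays. Gad1, which makes GABA from glutamate (chr3:75777202-75777501 on the plus strand), held 26 CG pairs together with TATAAA and was on all 6.
Gabra5: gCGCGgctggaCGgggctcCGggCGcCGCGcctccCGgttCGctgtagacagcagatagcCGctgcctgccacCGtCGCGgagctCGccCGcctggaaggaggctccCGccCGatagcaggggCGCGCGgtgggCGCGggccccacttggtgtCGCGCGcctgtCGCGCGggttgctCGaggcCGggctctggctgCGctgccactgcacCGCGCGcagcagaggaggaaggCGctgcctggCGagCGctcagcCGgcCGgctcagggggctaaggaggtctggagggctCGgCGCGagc
Gad1: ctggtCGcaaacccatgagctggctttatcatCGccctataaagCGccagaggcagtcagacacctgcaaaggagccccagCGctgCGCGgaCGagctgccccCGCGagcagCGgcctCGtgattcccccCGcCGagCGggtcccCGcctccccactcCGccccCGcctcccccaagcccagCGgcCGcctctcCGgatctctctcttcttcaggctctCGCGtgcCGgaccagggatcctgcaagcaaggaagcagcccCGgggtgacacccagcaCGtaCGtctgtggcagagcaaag
Gabra3, the alpha3 subunit (chrX:155543821-155544120 on the minus strand), was also on all 6 arrays and held no CG pair, with 1 match to TATAAA. Gabrg3, the gamma3 subunit (chr1:117382408-117382707 on the minus strand), held 37 CG pairs and was on 1 array.
Gabra3: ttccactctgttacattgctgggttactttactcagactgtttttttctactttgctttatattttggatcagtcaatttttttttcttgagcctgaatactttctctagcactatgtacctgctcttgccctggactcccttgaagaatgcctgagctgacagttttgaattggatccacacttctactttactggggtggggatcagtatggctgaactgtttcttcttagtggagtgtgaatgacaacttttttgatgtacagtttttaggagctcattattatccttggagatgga
Gabrg3: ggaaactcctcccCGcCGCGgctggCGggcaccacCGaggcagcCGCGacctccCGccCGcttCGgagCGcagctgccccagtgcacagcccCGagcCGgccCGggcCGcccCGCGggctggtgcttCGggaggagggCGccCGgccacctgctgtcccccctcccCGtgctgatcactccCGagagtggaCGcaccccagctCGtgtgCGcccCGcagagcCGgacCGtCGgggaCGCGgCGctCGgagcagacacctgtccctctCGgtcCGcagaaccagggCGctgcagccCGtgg
Gabra6, the alpha6 subunit known from cerebellar granule cells (chr10:27327185-27327484 on the minus strand), held no CG pair and was on no array. Tshb (chr2:192918005-192918304 on the minus strand) held 4 CG pairs and TATAAA and was on no array.
Gabra6: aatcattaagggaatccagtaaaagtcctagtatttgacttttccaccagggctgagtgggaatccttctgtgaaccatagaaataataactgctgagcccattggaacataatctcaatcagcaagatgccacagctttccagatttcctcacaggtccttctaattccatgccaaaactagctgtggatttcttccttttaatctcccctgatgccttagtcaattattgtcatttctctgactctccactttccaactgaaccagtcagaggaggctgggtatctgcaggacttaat
Tshb: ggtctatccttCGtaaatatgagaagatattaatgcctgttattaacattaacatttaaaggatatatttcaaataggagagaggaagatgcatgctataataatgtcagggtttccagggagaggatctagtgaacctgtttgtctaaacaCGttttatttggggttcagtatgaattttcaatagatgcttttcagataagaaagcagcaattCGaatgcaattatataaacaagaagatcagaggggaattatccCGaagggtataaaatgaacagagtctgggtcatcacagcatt
A match or its absence describes the letters of this window only.

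The 5 marker genes of the main cell classes were all well above background on all 6 arrays. Slc17a7, the vesicular glutamate transporter VGLUT1 of excitatory neurons, had levels of -1.86, -1.98 and -2.05 in untreated 26 h cultures, against -2.49, -1.88 and -2.27 in untreated 9 h cultures. Gad1, the marker of GABAergic neurons, had levels of 3.46, 2.91 and 2.57 in untreated 26 h cultures, against 3.04, 2.85 and 2.68 in untreated 9 h cultures. Gfap, the intermediate filament of astrocytes, had levels of 2.05, 2.78 and 3.43 in untreated 26 h cultures, against 2.0, 2.32 and 2.64 in untreated 9 h cultures. Gfap was highest in replicate 3 and lowest in replicate 1 at both times, and Gad1 ran the opposite way. Mbp, the myelin basic protein of oligodendrocytes, had levels of -1.16, -0.34 and 1.28 in untreated 26 h cultures, against -1.06, 0.27 and 1.27 in untreated 9 h cultures. Aif1, the IBA1 protein of microglia, had levels of -4.10, -3.75 and -3.71 in untreated 26 h cultures, against -4.45, -4.20 and -3.49 in untreated 9 h cultures. Mbp again ordered the cultures by replicate number at both times, over a span of more than 2 log2 units, whereas the ranges of the 26 h and 9 h cultures overlapped for all 5 genes. Their percentiles were 56.8 for Slc17a7, 95.5 for Gad1, 93.7 for Gfap, 76.3 for Mbp and 42.7 for Aif1. A second probe was far dimmer for 3 of them, with mean levels of -3.61 for Gad1, -3.81 for Mbp and -6.81 for Aif1, so the level of a gene depends on the probe read.

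**Figure D2:**
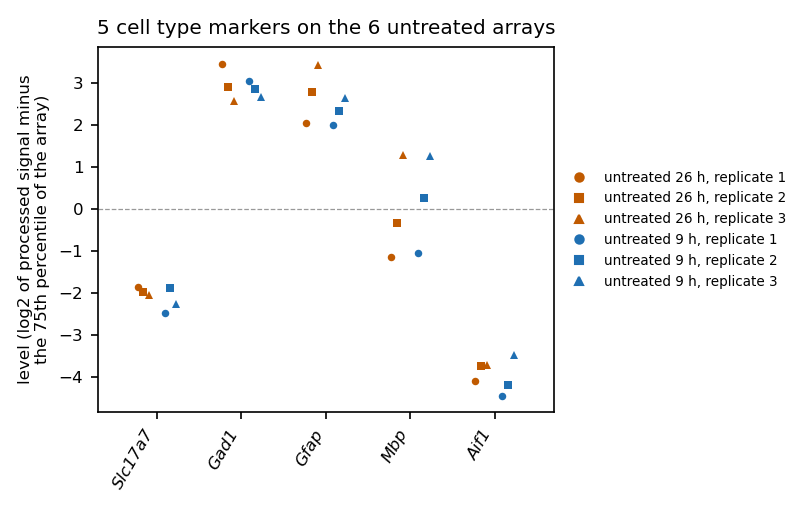
Level (y axis, log2 signal relative to the array's 75th percentile) of 5 cell type markers in 3 untreated 26 h and 3 untreated 9 h cultures, 1 point per culture. Gad1 and Gfap lie above 0 in every culture, Slc17a7 and Aif1 below 0, and Mbp lies on both sides of 0 with replicate 3 highest at both times.

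The longer lists described a mixed culture in which many neuronal and astrocyte genes were bright. All 14 pan-neuronal genes were on all 6 arrays and 9 stood in the top 25%. Stmn2, the tubulin-binding stathmin of growing axons, had levels of 3.83, 4.48 and 4.61, and Snap25, the presynaptic SNARE protein, had 2.39, 2.67 and 3.08. Rbfox3, the splicing factor known as NeuN, was dimmest of this list at -4.96, -4.68 and -4.47. Of 17 astrocyte genes, 16 were on all 6 arrays and 14 stood in the top 25%. Slc1a3, the glutamate transporter GLAST, had levels of 3.77, 4.23 and 4.50 with some spots saturated, and Aqp4, the water channel of astrocyte endfeet, had 3.50, 3.83 and 4.07. Slc1a2, the glutamate transporter GLT-1 that matures with astrocytes, had 0.64, 0.76 and 1.18.

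Oligodendrocyte lineage genes were on all 6 arrays for 16 of 19 (84.2%), against 75.2% of all named genes. Olig1, a transcription factor of the lineage, had levels of 2.45, 2.84 and 3.80. Cspg4, the NG2 proteoglycan of precursors, had 1.17, 1.32 and 1.69, and Gpr17, a receptor of the stage before myelination, had -3.48, -2.99 and -2.72. Of the myelin proteins, Mog, the last to appear, had levels of -6.94, -6.36 and -6.13. Mal and Ermn, expressed late in myelination, were on 0 and 2 arrays.

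Of 21 microglial genes, 12 (57.1%) were on all 6 arrays, against 75.2% of all named genes. Their median percentile was 28.1, and 1 stood in the top 25%. Cx3cr1, the fractalkine receptor, had levels of -1.56, -0.71 and 0.28. Csf1r, the receptor for the growth factor that microglia need, had -5.05, -4.40 and -3.92, and Tmem119 had -5.28, -4.91 and -4.41. Ptprc, the CD45 protein of all leukocytes, and the macrophage receptors Mrc1 and Cd163 were on no array, and Itgam, the integrin CD11b, was on 2. The summed linear level of the list, in units of the 75th percentile signal, ran from 3.91 to 5.20 over the arrays.

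Genes of meninges and choroid plexus had the largest differences between cultures among the 14 lists read by array. Of 12 genes of meninges and fibroblasts, 10 were highest in replicate 3 at both times, and the median level of the list was 2.09 log2 higher in replicate 3 than in replicates 1 and 2. The summed level of this list ran from 4.17 to 17.3. Col1a1, a chain of fibrillar collagen, had levels of -1.44, 0.04 and 1.57 in untreated 26 h cultures, against -1.16, 0.42 and 1.55 in untreated 9 h cultures. Ptgds, the prostaglandin D synthase of leptomeninges and choroid plexus, had -6.60, -5.47 and 0.65 in untreated 26 h cultures, against -6.72, -6.03 and 0.16 in untreated 9 h cultures. Both genes were highest in replicate 3 at both times, and for Ptgds every other culture lay more than 5 log2 units below both of them. Of 10 choroid plexus genes, 9 were highest in replicate 3 at both times, and the median level of the list was 1.75 log2 higher there. Ttr, the thyroxine carrier made by choroid plexus, had levels of -0.60, 0.75 and 3.84 in untreated 26 h cultures, against -0.43, 0.58 and 4.36 in untreated 9 h cultures, and its spot was saturated on 1 array. Kl, the klotho gene of choroid plexus, was on no array.

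**Figure D3:**
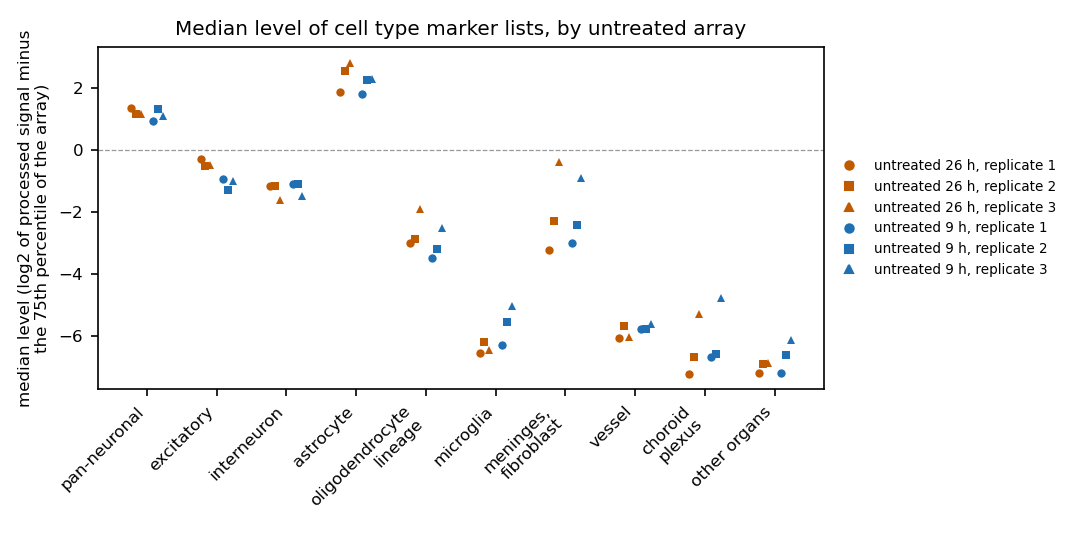
Median level (y axis, log2 signal relative to the array's 75th percentile) of 10 lists of marker genes in 3 untreated 26 h and 3 untreated 9 h cultures, 1 point per culture. The meningeal and choroid plexus lists were highest in replicate 3 at both times, whereas the pan-neuronal list stayed between 0.95 and 1.35.

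Other lists moved less between cultures. Replicate 3 was highest at both times for 13 of 19 oligodendrocyte genes, and the median level of the list was 0.93 log2 above replicates 1 and 2. For astrocyte genes it was highest for 9 of 17, with a list median 0.44 log2 higher. Genes of other organs moved as much, with 16 of 43 highest, 4 lowest and a list median 0.46 log2 higher. Microglial genes had 9 of 21 highest, 3 lowest and a list median 0.40 log2 higher. Replicate 3 was highest for none of the 14 pan-neuronal genes (difference of list medians -0.06 log2). Of 18 interneuron genes it was lowest for 9 and highest for 5 (-0.42 log2). Over all named genes, 32.4% were highest and 15.1% lowest in replicate 3 at both times. Vim, the vimentin of progenitors, glia and fibroblasts, had levels of 1.42, 3.11 and 4.06 in untreated 26 h cultures, against 1.62, 1.99 and 3.25 in untreated 9 h cultures. The part of the meningeal or choroid plexus genes in any other difference between cultures was not tested. Over the 4 arrays of replicates 1 and 2, the number of members detected on every array was the same as over the 6 arrays for 53 of the 54 lists described here, the exception being the monoamine synthesis and transport genes with 10 in place of 9. The number on no array cannot fall when arrays are left out. It went from 3 to 6 for nicotinic subunits, from 4 to 7 for Hox genes and from 0 to 4 for TRP channels. For genes of other organs it went from 11 to 14, and for calcium channels it stayed at 2.

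Genes of AMPA receptors, which open on glutamate and pass fast current, were all on all 6 arrays. Gria2, whose edited form makes the receptor impermeable to calcium, had levels of 0.32, 0.85 and 1.22 (percentile 82.7). Gria4, the subunit of interneurons and of young principal cells, had -0.22, 0.34 and 0.63 (percentile 78.5), and Gria3 had -0.59, -0.42 and -0.18 (percentile 72.5). Gria1, the subunit delivered to synapses during potentiation, had -2.58, -2.01 and -1.57 (percentile 57.5). All 10 measured auxiliary subunits were detected too. Cnih2, the cornichon that slows hippocampal AMPA receptors, had levels of 1.96, 2.38 and 2.58, and Cacng2, stargazin, had 1.60, 1.85 and 2.14. Cacng8, the TARP gamma-8 of the hippocampus, had -2.25, -1.72 and -1.54, while Cacng5 was close to the detection limit at -7.26, -7.10 and -5.97.

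All 7 NMDA receptor genes were on all 6 arrays. Grin2d, the GluN2D subunit known from interneurons and from early development, had levels of 3.34, 3.53 and 3.66 (percentile 97.3). The other subunits gave dimmer spots, Grin1, the obligatory GluN1 subunit, with -3.34, -2.67 and -2.39 (percentile 51.4). Grin2a, whose share grows as synapses mature, had -2.23, -1.83 and -1.66, and Grin2b, the juvenile counterpart, had -3.82, -3.24 and -3.06. Grin2c had -0.14, 0.01 and 0.11. Grin3a, which lowers calcium entry, had -3.30, -2.50 and -1.81, and Grin3b had -7.45, -6.83 and -6.20 at percentile 24.5. These levels come from different probes, and the order of the subunits is therefore not an order of abundance.

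Of the kainate and delta receptor genes, 7 of 8 were on all 6 arrays. Grik5, a high-affinity kainate subunit, had levels of 2.86, 3.26 and 3.61 (percentile 96.6), and Neto1, an auxiliary subunit of kainate receptors, had 0.48, 0.66 and 1.12. Grik4, the partner subunit of field CA3, had -2.43, -2.19 and -2.04, and Grik3 was on 5 arrays. All 8 metabotropic glutamate receptors were on all 6 arrays. Grm5, the postsynaptic receptor mGlu5, had levels of -2.41, -1.76 and -0.83. Grm4, a presynaptic receptor best known from cerebellum, had -0.44, -0.03 and 0.24. Grm6, the receptor of retinal bipolar cells, had -5.82, -5.22 and -4.64 at percentile 34.4.

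GABA-A receptors are pentamers of subunits from several classes, and 12 of the 19 genes were on all 6 arrays. Alpha, beta and gamma subunits were among those 12 by the detection flag, which does not show that they occurred in the same cells. Among alpha subunits, Gabra2 had levels of -1.60, -1.09 and -1.03 and Gabra5 -1.78, -1.33 and -1.0. Gabra4, the partner of the delta subunit in forebrain, had -3.14, -2.91 and -2.78, and Gabra3 had -5.42, -4.95 and -4.86. Of the beta subunits, Gabrb1 had levels of 1.21, 1.73 and 2.16 (percentile 89.4) and Gabrb2, a subunit of many synaptic receptors of adult brain, had -5.69, -5.49 and -5.07 (percentile 33). Of the gamma subunits, Gabrg1 had -1.57, -1.19 and -1.15. Gabrd, the extrasynaptic delta subunit, had -2.12, -1.91 and -1.50, and Gabrq, the theta subunit, had -0.45, 0.27 and 0.72.

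The 7 remaining genes were on 0 to 2 arrays. Gabra6, Gabre, Gabrp, Gabrr1 and Gabrr2 were on no array, Gabrg3 was on 1 and Gabrr3 on 2, where 11.8% of all named genes were on no array. The rho subunits, Gabrr1 to Gabrr3, are known from retina, and Gabrp from epithelia. The share of this list on all 6 arrays was 63.2%, against 75.2% of all named genes. Without the replicate 3 arrays 12 genes were again on every array, and 6 were on none.

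**Figure D4:**
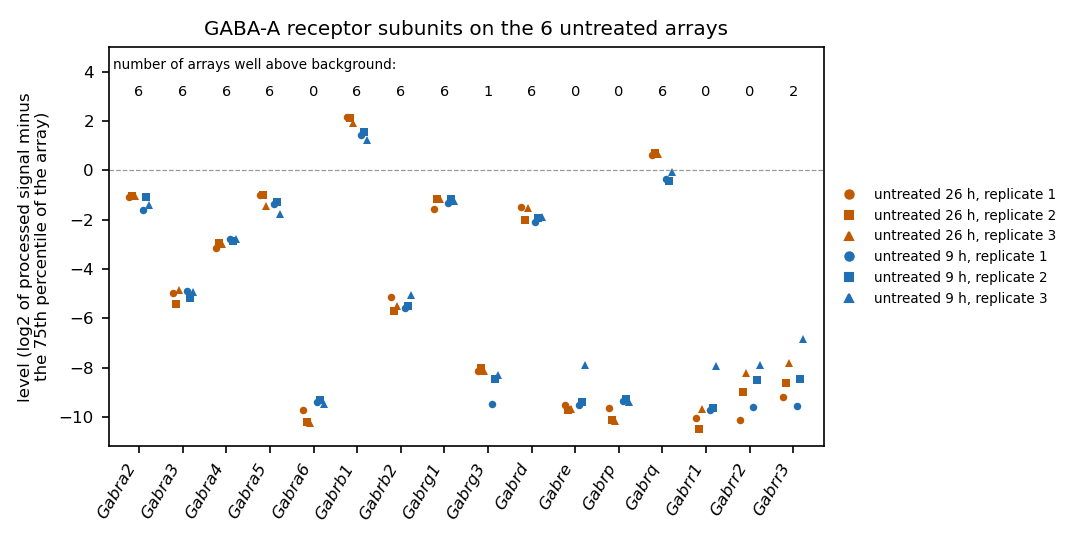
Level (y axis, log2 signal relative to the array's 75th percentile) of 16 of the 19 GABA-A receptor genes in 3 untreated 26 h and 3 untreated 9 h cultures, 1 point per culture, with the number of arrays well above background printed over each gene. The 9 plotted genes on all 6 arrays lie above -6, and the 7 others below it.

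Both subunits of the GABA-B receptor, the metabotropic GABA receptor, were bright: Gabbr1 had levels of 2.47, 2.62 and 3.16 and Gabbr2 2.51, 2.74 and 3.17. Among glycine receptor genes, Glra2, the alpha2 subunit of immature neurons, had 1.95, 2.76 and 3.61 (percentile 95), and Glrb, the beta subunit that ties the receptor to gephyrin, had -4.71, -4.14 and -3.69 (percentile 41.2). Glra1, the adult spinal subunit, had -3.89, -3.41 and -3.2, while Glra3 and Glra4 were on no array. The sign of the GABA response depends on chloride cotransporters. Slc12a5, the neuronal exporter KCC2, had levels of 2.43, 2.51 and 2.91 (percentile 93.8), and Slc12a2, the importer NKCC1, had -1.20, -0.87 and -0.77 (percentile 67.6).

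Among receptors for acetylcholine and monoamines, the share on all 6 arrays was 50% for nicotinic subunits and serotonin receptors and 60% for muscarinic and dopamine receptors, but 77.8% for adrenergic receptors, against 75.2% of all named genes, and all 3 histamine receptors were detected. Of 16 nicotinic subunits, 8 were on all 6 arrays, 3 on none and none in the top 25%. Chrna7, the homomeric alpha7 receptor of hippocampal interneurons, had levels of -3.75, -3.37 and -2.78. Chrna4 had -3.49, -3.45 and -3.38 and Chrnb2, its usual partner, -6.10, -5.40 and -5.11. Chrna2, Chrna6 and Chrna10 were on no array. Chrna1, the muscle subunit, had -3.02, -2.76 and -2.25, within the range of the genes of other organs. The dimmer levels of Chrna7, Chrna4 and Chrnb2 were in that range as well. Of the muscarinic receptors, Chrm3 had levels of 0.43, 1.16 and 1.63 and Chrm4, a Gi-coupled receptor, -1.53, -0.96 and -0.06. Chrm1, the main muscarinic receptor of adult pyramidal cells, had -5.65, -5.09 and -4.62 (percentile 34.8), and Chrm2 and Chrm5 were on 5 and 4 arrays.

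Dopamine receptor genes were low, with Drd2 at -5.20, -4.33 and -3.80 and Drd5 at -4.77, -4.31 and -4.21, and Drd1 was on no array. Of 14 serotonin receptors, 7 of 14 were on all 6 arrays. Htr3a, the ion channel of a class of interneurons, had levels of -1.04, -0.60 and -0.43 (percentile 70.1), and Htr2c had -3.87, -3.43 and -3.04. Htr1b, Htr1f and Htr3b were on no array, and Htr1a, the receptor of pyramidal cells, was on 5. Of 9 adrenergic receptors, 7 were on all 6 arrays. Adra1b had levels of -0.19, 0.18 and 0.51 and Adrb1, which couples noradrenaline to cAMP, -4.83, -4.56 and -4.06. Hrh3, the presynaptic histamine receptor, had 0.25, 0.66 and 1.04 (percentile 81.6).

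Of 17 purine receptors, 8 of 17 were on all 6 arrays and none stood in the top 25%. Adora1, the adenosine receptor that dampens glutamate release, had levels of -3.57, -3.00 and -2.75. Adora2b had -2.08, -1.57 and -1.36. P2ry12, the ADP receptor of resting microglia, was on 5 arrays, and P2rx7, the ATP receptor of activated microglia, was on none.

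Receptors for peptides and cannabinoids were on all 6 arrays for 29 of 37 genes (78.4%), against 75.2% of all named genes, and 3 stood in the top 25%. Ntsr2, a neurotensin receptor of astrocytes, had levels of 1.67, 2.02 and 2.66. Cnr1, the presynaptic cannabinoid receptor CB1, had 0.46, 1.1 and 1.35, and Sstr2, a somatostatin receptor, had -0.02, 0.42 and 0.95. Npy1r, the receptor for neuropeptide Y on principal cells, had -2.80, -2.65 and -1.48. Of the opioid receptors, Oprd1 had -4.54, -4.23 and -3.63, Oprm1 had -6.97, -6.29 and -5.83 and Oprk1 was on no array.

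Sodium channel genes of the brain were all detected. Scn2a, the channel of young axons, had levels of 0.38, 1.02 and 1.38 (percentile 84), and Scn3a, the fetal channel, had -0.99, -0.84 and -0.69. Scn1a, prominent in fast-spiking interneurons, had -2.20, -1.88 and -1.23, and Scn8a, which comes to dominate the mature initial segment, had -3.07, -2.42 and -2.16. Of the beta subunits, Scn3b had levels of 2.85, 3.26 and 3.71 (percentile 96.6) and Scn2b, which rises with myelination, -6.00, -5.78 and -4.92 (percentile 31.5). Scn10a, the channel of nociceptors, was on 1 array and Scn4a, the muscle channel, on 5.

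Of 17 calcium channel genes, 15 were on all 6 arrays, and the other two, Cacna1f and Cacna2d4, which serve the retina, were on none. Cacnb3, a cytoplasmic beta subunit, had levels of 2.05, 2.80 and 3.34 (percentile 94.7). Cacna1b, the N-type channel of presynaptic terminals, had 0.04, 0.43 and 0.55, and Cacna1a, the P/Q-type channel, had -2.38, -1.82 and -1.81. Cacna1i, a T-type channel, had 0.57, 1.06 and 1.36, and Cacna1c, the main L-type channel of brain, had -1.48, -1.31 and -1.15. Cacna1s, the skeletal muscle channel, had -7.01, -6.54 and -6.37 at percentile 25.8.

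Voltage-gated potassium channels were detected for 23 of 26 genes. Kcna1, an axonal channel, had levels of 2.06, 2.65 and 3.2 (percentile 94.2). Kcnd2, the A-type channel of dendrites, had -0.33, 0.30 and 0.56. Kcnq3, a subunit of the M-current, had -1.78, -0.81 and -0.08. Kcnc1, of fast-spiking cells, had -3.51, -3.24 and -2.78. Kcna10 was on no array.

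Of 15 inward rectifiers, 7 of 15 were on all 6 arrays and none stood in the top 25%. Kcnj3, a subunit of channels gated by G proteins, had levels of -0.95, -0.57 and 0.00, and Kcnj6, its partner, had -4.26, -3.49 and -3.07. Kcnj10, the Kir4.1 channel of mature astrocytes, was on 5 arrays at -8.23, -6.80 and -5.70, in cultures whose other astrocyte genes were bright. Kcnj1, of kidney, and Kcnj15 were on no array. Two-pore leak channels included Kcnk1 at 0.93, 1.19 and 1.38 and Kcnk12 at 0.50, 0.77 and 1.16, with 10 of 13 genes on all 6 arrays. Kcnmb4, the neuronal beta subunit of the BK channel, had 0.82, 1.24 and 1.57, and Kcnma1, its pore, had -2.81, -1.86 and -1.27.

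All 4 HCN channels, which carry the current activated by hyperpolarisation, were on all 6 arrays. Hcn2 had levels of -4.37, -3.6 and -3.12, Hcn3 had -2.86, -2.50 and -1.98 and Hcn4, the slow channel of pacemaker cells, had -3.92, -3.18 and -2.56. Of 18 TRP channels, 12 of 18 were on all 6 arrays. Trpc1, a widely expressed channel, had levels of -1.13, -0.75 and -0.32, and Trpc4 had -1.80, -1.06 and -0.51. Trpv1, the heat and capsaicin receptor, had -6.72, -6.10 and -5.51, and Trpa1 was on 1 array. Gja1, connexin 43 of astrocytes, had 1.14, 1.69 and 1.93, Gjd2, connexin 36 of neuronal gap junctions, -5.24, -4.59 and -3.55, and Panx1, a pannexin, 0.58, 1.03 and 1.09.

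**Figure D5:**
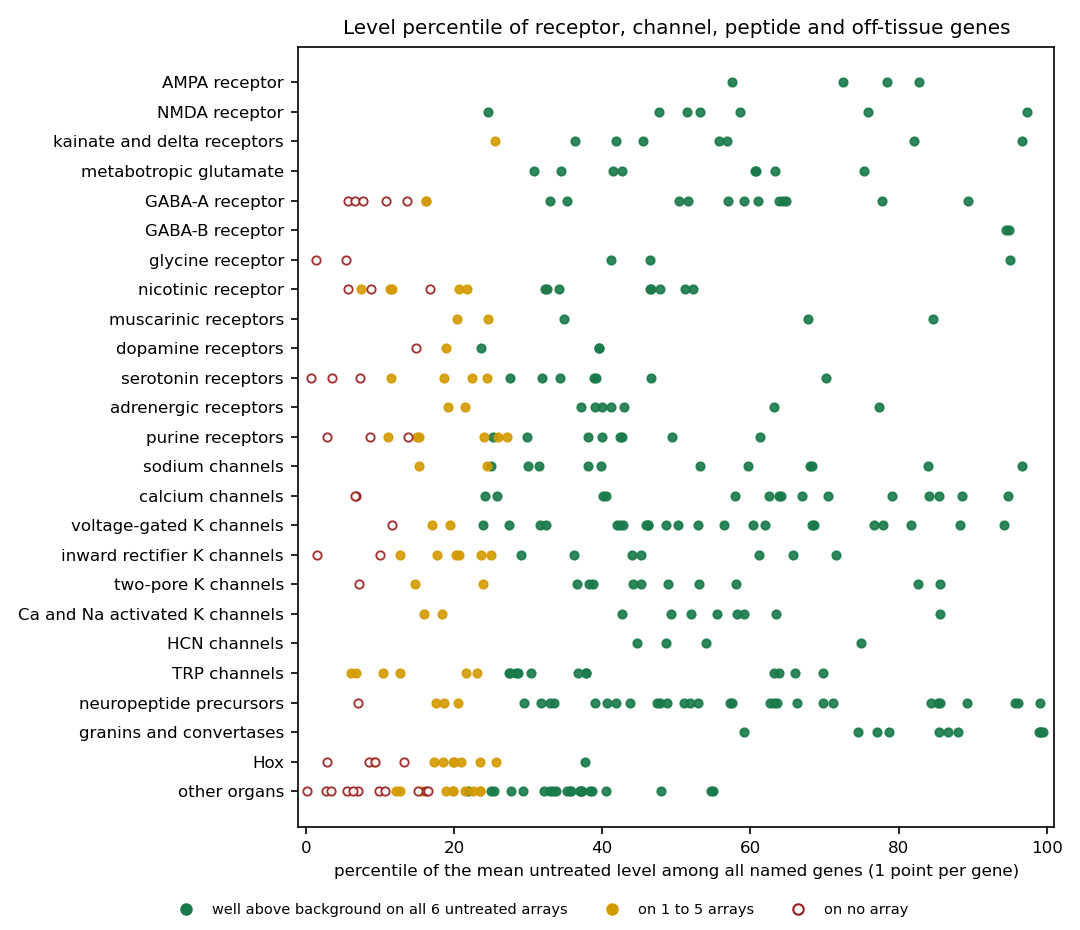
Percentile of the mean untreated level among all named genes (x axis) for the genes of 25 lists (rows), 1 point per gene, filled green for genes on all 6 untreated arrays, filled yellow for 1 to 5 arrays and open for none. AMPA and GABA-B receptor genes and granins lie in the upper part of the range, and nicotinic, serotonin, Hox and other-organ genes mostly below percentile 50.

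The machinery for both fast transmitters was detected throughout. All 5 genes for making or loading glutamate were on all 6 arrays. Slc17a6, the transporter VGLUT2 of subcortical and of immature cortical neurons, had levels of 1.39, 1.70 and 1.78 (percentile 88.7), and Slc17a8, VGLUT3, had -6.89, -6.19 and -5.88 (percentile 27.5). All 8 GABA genes were on all 6 arrays as well. Slc32a1, the vesicular GABA transporter, had levels of 2.29, 2.97 and 3.6 (percentile 95.5), and Gad2, the terminal form of the enzyme, had -0.81, -0.31 and 0.15. Slc6a11, the astrocytic GABA uptake transporter GAT-3, had -5.41, -4.84 and -4.52. Slc6a13, GAT-2 of the meninges, had -5.20, -3.34 and -1.54 in untreated 26 h cultures, against -5.91, -3.84 and -2.96 in untreated 9 h cultures, and it was highest in replicate 3 at both times.

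Of the genes for synthesis and transport, 3 of 4 for acetylcholine and 9 of 12 for monoamines were on all 6 arrays, and none of either list stood in the top 25%. Chat, which makes acetylcholine, was on 5 arrays at -7.14, -6.71 and -5.99, and Slc18a3, its vesicular transporter, had -3.6, -2.93 and -2.42. Th, which starts catecholamine synthesis, had -0.72, -0.39 and 0.02 (percentile 72.8), whereas Slc6a3, the dopamine transporter, was on 1 array and Dbh, which makes noradrenaline, on 5. Slc18a2, the vesicular monoamine transporter, had -2.36, -1.98 and -1.66. Tph2, which starts serotonin synthesis in neurons, had -6.66, -6.18 and -5.73, and Slc6a4, the serotonin transporter, was on 3 arrays. Slc6a5, the glycine transporter of glycinergic neurons, had -5.91, -5.77 and -5.39 (percentile 31.2).

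Of the neuropeptide precursors, 29 of 33 (87.9%) were on all 6 arrays, against 75.2% of all named genes. Their median percentile was 51.8, and 7 stood in the top 25%. Cck, cholecystokinin, was saturated on all 6 arrays, so that its level has only a lower bound. Npy, neuropeptide Y, had levels of 4.23, 2.79 and 2.25 in untreated 26 h cultures, against 3.08, 3.30 and 2.81 in untreated 9 h cultures, and Sst, somatostatin, had 4.07, 2.49 and 2.31 in untreated 26 h cultures, against 3.28, 3.2 and 2.62 in untreated 9 h cultures. Both were lowest in replicate 3 at both times, and Sst was highest in replicate 1 at both times, as was Npy at 26 h but not at 9 h. Tac1, the precursor of substance P, had 0.43, 2.24 and 2.41, Penk, proenkephalin, -0.11, 1.34 and 2.02, and Vip 0.84, 1.18 and 1.48. Pdyn, the prodynorphin of dentate granule cells, had -3.74, -2.55 and -2.25. Hypothalamic peptides included Hcrt, orexin, with -3.68, -3.27 and -2.98 and Pmch, which was on 3 arrays. All 11 granins and processing enzymes were on all 6 arrays, and Vgf, a granin induced by neurotrophins, was saturated on all of them.

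All 18 interneuron genes were on all 6 arrays. Calb2, calretinin, had levels of 0.35, 1.12 and 1.43, and Lhx6, the transcription factor of cells from the medial ganglionic eminence, had -1.81, -1.25 and -0.91. Pvalb, the parvalbumin of late-maturing basket cells, had -4.49, -4.37 and -3.70 (percentile 40.9), and Lamp5, of neurogliaform cells, had -6.14, -5.55 and -5.06. Among 13 excitatory neuron genes, 11 of 13 were on all 6 arrays. Bhlhe22 had levels of 1.90, 2.29 and 2.88 and Neurod6, a factor of pyramidal neurons, 1.34, 1.71 and 2.40. Camk2a, the calcium kinase of mature excitatory synapses, had -3.00, -2.43 and -2.21. Tbr1, a factor of early-born cortical neurons, and Rasgrf1 were on no array.

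Forebrain identity genes were all on all 6 arrays, Lhx2 with levels of 1.34, 1.59 and 1.87. Of 13 Hox genes, 1 was on all 6 arrays (7.69%), and of 18 factors of other brain regions 7 were (38.9%), against 75.2% of all named genes. Those 7 factors were Pax2, Pax5, Pax8, Lmx1a, Foxa1, Pitx3 and Atoh1, and as many were on no array. Isl1, of motor neurons and striatum, Gata3 and Foxa2, of ventral brainstem, and Fev, of serotonin neurons, were on no array. None of the Hox genes or of these factors stood in the top 25%. Of 14 genes that mark hippocampal fields, 13 were on all 6 arrays and Iyd was on none. Detection alone does not show that cells of every field were present. Fibcd1, of field CA1, had 0.82, 1.37 and 1.94, Bok, of CA3, had 0.70, 1.33 and 1.65, and C1ql2, of dentate granule cells, had -1.55, -0.89 and -0.18. Prox1, the factor of granule cells, had -6.48, -6.00 and -4.83 (percentile 30.1), and Amigo2, of CA2, had -4.17, -2.84 and -1.06. Of the Cajal-Retzius genes, Reln, which interneurons also make, had -1.12, -1.08 and -0.80, and Lhx1 was on no array.

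Genes of immature and dividing cells were detected. Dcx, the doublecortin of young neurons, had levels of -2.28, -2.02 and -1.36, and Sox11 had -4.50, -3.85 and -2.98. Sox2, which glia keep, had 2.43, 2.55 and 3.18, whereas Neurog1, of committed progenitors, was on no array. All 12 genes of the cell cycle were on all 6 arrays. Pcna, a replication clamp, had 0.50, 0.81 and 1.04, Cdk1, the mitotic kinase, -1.23, -0.47 and -0.16, and Aurkb -6.31, -5.31 and -4.65.

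Genes that neuronal activity induces were all on all 6 arrays, and 13 of 21 stood in the top 25%. Arc, which removes AMPA receptors from synapses, had levels of 0.62, 1.52 and 2.52, and Bdnf, the neurotrophin, had -0.64, -0.08 and 0.78. Fos had -0.15, 0.14 and 0.46 and Npas4, a factor specific to calcium entry, -3.83, -2.15 and -1.33. Their spread between cultures was wide for Nr4a1, an orphan nuclear receptor, at 2.75, 2.01 and 1.39 in untreated 26 h cultures, against 0.38, 0.33 and 1.28 in untreated 9 h cultures.

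The 12 genes with the highest mean level were Ppia, Actg1, Mtch1, Rpl21, Pebp1, Rps2, Tubb5, Atp1b1, Ppial4g, Tubb4b, Uchl1 and Rplp0. They were saturated on all 6 arrays, as were 128 genes in all, so their order has no meaning. They include the cytoskeletal genes Actg1, Tubb5 and Tubb4b, the ribosomal genes Rpl21, Rps2 and Rplp0, and Uchl1, a ubiquitin hydrolase of neurons.

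The 12 genes with the largest SD between untreated cultures were mostly of 2 kinds. For Ptgds, Ttr, Aldh1a2, Gjb2, Inmt, Ogn and Tfap2b the level was highest in replicate 3 at both times. Aldh1a2, which makes retinoic acid in meninges, had levels of -6.73, -3.96 and -2.20 in untreated 26 h cultures, against -6.72, -4.37 and -3.64 in untreated 9 h cultures, and Ogn, a proteoglycan of connective tissue, had -5.57, -3.93 and -1.93 in untreated 26 h cultures, against -5.13, -3.36 and -1.42 in untreated 9 h cultures. Serpina3n, a serine protease inhibitor of reactive astrocytes, had -5.27, -1.48 and -1.17 in untreated 26 h cultures, against -3.73, -2.50 and -1.20 in untreated 9 h cultures, with replicate 1 lowest at both times. The other 4 genes were high on a single array. Or10ak14, an olfactory receptor, had 0.40, -6.75 and -5.44 in untreated 26 h cultures, against -5.57, -5.55 and -5.21 in untreated 9 h cultures. Ldhc, the lactate dehydrogenase of testis, had -5.68, -5.22 and -5.09 in untreated 26 h cultures, against -5.30, -5.30 and -0.94 in untreated 9 h cultures. Adamts19 and Or7g23 behaved likewise, with 9 h replicate 3 and 9 h replicate 2 high.

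Untreated cultures of the 26 h arm were then set against those of the 9 h arm. In a limma fit of all 12 arrays, 4249 of 21245 genes and unnamed targets passed an adjusted p of 0.05 (20.0%), 2175 higher (10.2%) and 2074 lower (9.76%) in the 26 h cultures. None of the 5 cell type markers was among them. The count was 1005 without the replicate 3 arrays (480 higher and 525 lower) and 2455 without untreated 26 h replicate 2. The scan day could not be told apart from the time. In the blocked arms the scan days ran the other way round, with 26 h arrays on day 1 and 9 h arrays on day 2, so their values are given beside those of the untreated cultures.

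Of the 4 HCN channels, 3 were called higher in the untreated 26 h cultures and none lower. Of all targets tested, 10.2% were called higher and 9.76% lower. The median change was 0.66 log2 over the list, against 0.02 log2 over all targets tested. Hcn4 had levels of -2.57, -2.56 and -2.78 in untreated 26 h cultures, against -3.92, -3.76 and -3.59 in untreated 9 h cultures, a difference of 1.12 ± 0.20 log2 (SE, adjusted p = 0.00392). In the blocked cultures the mean was -3.29 ± 0.38 at 26 h and -2.81 ± 0.26 at 9 h (SD, n = 3 each), with 26 h the lower. Hcn2 had -3.29, -3.32 and -3.12 in untreated 26 h cultures, against -4.37, -3.89 and -4.06 in untreated 9 h cultures (0.86 ± 0.15 log2, adjusted p = 0.00435). The blocked cultures averaged -4.19 ± 0.18 at 26 h and -3.02 ± 0.20 at 9 h, so for both channels the arrays of scan day 2 had the higher mean in either arm. Without the replicate 3 arrays the adjusted p was 0.0467 for Hcn4, 0.0697 for Hcn2 and 0.107 for Hcn3. In that fit 1 of the 4 channels was called, where 480 of 21245 targets were higher and 525 lower.

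Glutamate receptor genes also included several calls, all but one of them higher at 26 h. Gria2 had levels of 1.22, 1.17 and 1.11 in untreated 26 h cultures, against 0.59, 0.32 and 0.43 in untreated 9 h cultures, which did not overlap (0.72 ± 0.11 log2, adjusted p = 0.00198). The blocked cultures averaged 0.98 ± 0.10 at 26 h and 1.04 ± 0.14 at 9 h for this gene. Of the 7 NMDA receptor genes, Grin1, Grin2a and Grin3a passed, where 20.0% of all targets did, and none passed without the replicate 3 arrays. Grin1 had -2.40, -2.53 and -2.39 in untreated 26 h cultures, against -3.34, -2.82 and -3.25 in untreated 9 h cultures (0.70 ± 0.16 log2, adjusted p = 0.0131), and the blocked cultures averaged -3.46 ± 0.26 at 26 h and -2.08 ± 0.07 at 9 h. The call in the other direction was Grid1, a delta receptor, with a difference of -0.38 ± 0.10 log2 (adjusted p = 0.024).

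Of 12 GABA-A receptor genes tested, 4 were higher and none lower in the 26 h cultures, and 2 without the replicate 3 arrays. Over all targets 10.2% were higher and 9.76% lower, and without the replicate 3 arrays 480 of 21245 were higher and 525 lower. Gabrb1 had levels of 2.16, 2.11 and 1.93 in untreated 26 h cultures, against 1.42, 1.54 and 1.21 in untreated 9 h cultures (0.67 ± 0.12 log2, adjusted p = 0.00414). In the blocked cultures Gabrb1 averaged 1.60 ± 0.07 at 26 h and 1.74 ± 0.15 at 9 h. Of 15 calcium channel genes, 5 were higher and none lower, and 1 without the replicate 3 arrays. Cacnb3 had 3.34, 3.26 and 3.11 in untreated 26 h cultures, against 2.50, 2.05 and 2.21 in untreated 9 h cultures (0.98 ± 0.15 log2, adjusted p = 0.00212), while its blocked cultures averaged 2.97 ± 0.08 at 26 h and 3.32 ± 0.25 at 9 h.

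Of 11 excitatory neuron genes tested, 4 were higher and none lower at 26 h, against 10.2% and 9.76% of all targets. This was also the count without the replicate 3 arrays, where 480 of 21245 targets were higher and 525 lower. Neurod1, a factor of granule cells and young neurons, had levels of -0.27, -0.51 and -0.54 in untreated 26 h cultures, against -1.26, -1.49 and -1.42 in untreated 9 h cultures (0.95 ± 0.17 log2, adjusted p = 0.00389), and the blocked cultures averaged 0.05 ± 0.18 at 26 h and -0.80 ± 0.32 at 9 h, also with 26 h the higher. Of 32 neuropeptide genes tested, 4 were lower and none higher, a share close to the 9.76% of all targets that were lower. Gal, galanin, had -3.29, -2.22 and -2.16 in untreated 26 h cultures, against -0.97, -0.98 and 0.86 in untreated 9 h cultures (-2.19 ± 0.55 log2, adjusted p = 0.0199), with every 26 h culture below every 9 h culture. The blocked cultures averaged -1.23 ± 0.47 at 26 h and -0.36 ± 0.75 at 9 h, and none of the 4 peptide calls was made without the replicate 3 arrays. Among 21 activity genes 4 were higher and 1 lower, where 20.0% of all targets were called. Bdnf had 0.39, 0.78 and 0.26 in untreated 26 h cultures, against -0.64, -0.42 and -0.42 in untreated 9 h cultures (0.97 ± 0.15 log2, adjusted p = 0.00224), while its blocked cultures averaged -2.93 ± 0.15 at 26 h and -2.26 ± 0.14 at 9 h.

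None of the 17 astrocyte genes passed between the times in limma, where 0 had an unadjusted p under 0.05, and none of 12 tested sodium channel genes passed, where 2 did.

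The untreated cultures were last set against the blocked ones. Averaged over both times, with each arm scanned once on each day, 934 of 21245 targets passed (4.40%), 482 higher (2.27%) and 452 lower (2.13%) in blocked cultures. With the replicate number as a block the count was 2717 (1329 higher and 1388 lower), and without the replicate 3 arrays it was 356 (196 higher and 160 lower). By detection, 11377 named genes were on all 6 blocked arrays, against 11401 on all 6 untreated arrays, and 1 gene was on all 6 untreated arrays and on no blocked one.

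Of the 21 activity genes, 17 were lower in blocked cultures and none higher, against 2.13% and 2.27% of all targets. The median was -1.74 log2 over the list, against -0.02 log2 over all targets tested. Bdnf had levels of -3.02, -2.59 and -2.16 in blocked cultures, against -0.64, -0.08 and 0.78 in untreated cultures, without overlap (-2.59 ± 0.10 log2, adjusted p = 3.95e-06). Scan day 1 set blocked 26 h against untreated 9 h cultures, and day 2 set blocked 9 h against untreated 26 h cultures. Each difference within a day therefore also holds a difference in time. For Bdnf it was -2.44 log2 within day 1 and -2.74 log2 within day 2. Arc had -2.29, -1.36 and -0.01 in blocked cultures, against 0.62, 1.52 and 2.52 in untreated cultures (-2.79 ± 0.29 log2, adjusted p = 5.16e-04), with -3.49 log2 on day 1 and -2.09 log2 on day 2. Without the replicate 3 arrays 16 of the 21 were lower, against 160 of 21245 targets. Of 32 neuropeptides, 7 were lower and 2 higher, against 2.13% and 2.27% of all targets. Without the replicate 3 arrays 5 were lower and 2 higher, against 160 and 196 of 21245 targets. Adcyap1, the PACAP precursor, had -3.64, -3.12 and -2.13 in blocked cultures, against -1.57, -1.0 and -0.81 in untreated cultures (-1.94 ± 0.14 log2, adjusted p = 4.96e-05), with -2.66 log2 on day 1 and -1.22 log2 on day 2.

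Of the 4 AMPA receptor genes, Gria1 was higher in blocked cultures, with levels of -1.61, -1.37 and -1.24 in blocked cultures, against -2.58, -2.01 and -1.57 in untreated cultures (0.64 ± 0.13 log2, adjusted p = 0.0222, and 0.0587 without the replicate 3 arrays). With the replicate number as a block Gria2 was higher as well (limma adjusted p = 0.0436). Of 7 NMDA receptor genes none passed in limma, and 3 had an unadjusted p under 0.05, while Grin2a was higher (adjusted p = 0.0392) and Grin2c lower (adjusted p = 0.0232) with the block. Of 12 GABA-A receptor genes, Gabrd and Gabra4 were lower, and without the replicate 3 arrays only Gabrd was (adjusted p = 0.0398, against 0.295 for Gabra4). Gabrd had levels of -3.45, -2.52 and -1.96 in blocked cultures, against -2.12, -1.91 and -1.50 in untreated cultures (-0.81 ± 0.13 log2, adjusted p = 0.00651). Among the 5 markers only Slc17a7 passed, with levels of -1.92, -1.55 and -1.20 in blocked cultures, against -2.49, -2.01 and -1.86 in untreated cultures (0.52 ± 0.10 log2, adjusted p = 0.0142), and its adjusted p was 0.213 without the replicate 3 arrays. Gad1 differed by -0.20 ± 0.15 log2 (adjusted p = 0.603), Gfap by -0.23 ± 0.28 log2 (adjusted p = 0.771), Mbp by -0.27 ± 0.59 log2 (adjusted p = 0.895) and Aif1 by -0.03 ± 0.17 log2 (adjusted p = 0.972). This fit held no block, so each SE includes the spread by replicate number. With the block 3 of 17 astrocyte and 5 of 17 oligodendrocyte genes were lower and none higher, against 1 lower in each list without it. Of 16 microglial genes none was called with or without it. None of 11 tested meningeal genes passed in limma, and 3 had an unadjusted p under 0.05, while 2 were lower once replicate number entered as a block. Of 12 cell cycle genes none passed, with 4 at an unadjusted p under 0.05, and 9 were lower with the block. Over all targets, 1329 of 21245 were higher and 1388 lower with the block.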

How the data were processed

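Total RNA (200 ng per sample, per the labels) was labelled with Cy3 and hybridised to 1 single-colour Agilent rat array per culture. The deposited scanner output was written by Agilent Feature Extraction 10.5.1.1, per the file headers, and its processed signal is a background-subtracted, spatially detrended intensity that was not normalized across arrays. A second deposited table holds log2 values, which are log2 of the processed signal less 1 constant per array whose rule is not stated, and it served as an alternative. Slides and scan days came from the file headers: the 12 arrays lie on 6 slides scanned on 2 days.

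A level is the log2 ratio of the processed signal to its 75th percentile on the same array. Control spots were left out, as were 3751 spot values flagged as outliers, and a probe's spots were averaged. Of 30367 probes, 18004 were named through transcript accessions in a RefSeq table of the build GRCr8, while the headers name an older build, so array coordinates were not used. Promoters come from RefSeq on GRCr8. A gene counted as detected by any of its probes, and its level came from the kept probe (well above background on all arrays of a group) with the highest mean over the 12 arrays. On a saturated spot the level is a lower bound. Signal over background limits what can be read of dim genes, and the number of arrays limits the precision.

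Contrasts were fitted on all 12 arrays with limma 3.58.1 (lmFit, eBayes, 1 mean per group) under R 4.3.3, two-sided, with Benjamini-Hochberg adjustment over 21245 genes and unnamed targets. They were untreated 26 h minus untreated 9 h, and blocked minus untreated averaged over both times. The fit was tested on simulated data. Per the labels, replicates are independent cultures. After removal of group means, same-numbered blocked and untreated arrays of a time correlated at 0.171 to 0.647 across targets, over a threshold of 0.1, so the replicate number was also fitted as a block for that contrast. Same-numbered untreated 26 h and 9 h arrays correlated at 0.44, -0.04 and 0.54, and since 1 of the 3 pairs was under that threshold, no pairing was taken for this contrast. Tables and figures used Python 3.11.15.

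The members, the 54 gene lists and the tests were chosen with earlier results of these data known. Any member of a list may be named, though some that were counted are not reported by name here. Beyond the lists, the 12 genes of highest mean level and the 12 of largest SD between untreated cultures are named. Of the 733 list genes, 671 were on the array. Alternatives covered detection by other probes or another flag, scaling, background correction, the deposited matrix, outlier spots, the filter on dim probes, the replicate number or slide as a block, and each array left out. Fits without the replicate 3 arrays were chosen after seeing the data.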

Additional observations from a re-analysis of the deposited data

Results flagged for a closer look

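In all, 503 genes with 6 untreated arrays well above background were tested for a single stray array. For 21 (4.17%) the highest or lowest array had a gap to the nearest other array, as a share of the whole range, above Dixon's critical value for 6 values. Chance gives about 1 in 20 for genes not picked by their spread. Adamts19, Ldhc, Or10ak14 and Or7g23 were named for their large SD between these same arrays, so their result was not independent. The 4.17% is therefore no test against chance. No cell type list passed Dixon's critical value by its median level. Untreated 9 h replicate 3 was the high array for 6 genes: Adamts19, a metalloprotease (gap share 0.94), Ldhc (0.875), Egr3, an activity-induced factor (0.754), Apoa1, an apolipoprotein (0.721), C1qb, a complement gene of microglia (0.721), and Cacna2d2, a calcium channel subunit (0.632). It was the low array for Shisa7, an auxiliary receptor subunit (0.728).

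Untreated 26 h replicate 1 was the high array for Slc12a5, the chloride exporter KCC2 (0.84), Or10ak14 (0.785), Dcn, decorin (0.665), and Mpped1 (0.63). It was the low array for Slc12a2, the chloride importer NKCC1 (0.677), Scn11a, a sodium channel (0.64), and Fgfr3, a growth factor receptor of astrocytes (0.633). Slc12a5 had levels of 2.91, 2.51 and 2.47 in untreated 26 h cultures, against 2.51, 2.51 and 2.43 in untreated 9 h cultures. Slc12a2 had -1.20, -0.77 and -0.88 in untreated 26 h cultures, against -0.86, -0.91 and -0.85 in untreated 9 h cultures, so that the same culture was highest for the exporter and lowest for the importer. Both genes are named here because they passed the critical value, and a link between them was not tested.

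Untreated 26 h replicate 3 was the low array for Panx1 (0.715). Untreated 9 h replicate 1 was the low array for Cacng8 (0.69), Ahsg, a liver glycoprotein (0.657), and Slc6a9, a glycine transporter (0.647). Untreated 9 h replicate 2 was the high array for Or7g23 (0.822) and Nefm, a neurofilament (0.703), and the low array for Kcnq1, a potassium channel (0.635).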

How the results depend on the processing

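The count of named genes on all 6 untreated arrays stayed within 1.5 times of 11401 under every alternative tried except the count over all genes and unnamed targets, 19293. The count on none was 3494 over all targets and 498 with the flag for a positive and significant spot. Leaving out 1 untreated array gave 11402 to 11575 on all, 1799 to 2255 on none, and 22 to 24 genes of other organs. The median level of the 5 markers (0.04) was 2.74 with median scaling, 0.61 from the deposited matrix, -1.88 with the mean of all probes and -0.57 without the replicate 3 arrays, and -0.20 to 0.28 with 1 array left out. For untreated 26 h against 9 h, 4249 calls became 7249 with the replicate number as a block, 1527 from the 6 untreated arrays alone and 1005 without the replicate 3 arrays. Leaving out 1 array gave 2455 (without untreated 26 h replicate 2) to 4024. Without the filter on dim probes 2030 were higher and 3139 lower. For blocked against untreated, 934 became 2717 with the replicate block, 2979 with the slide as a random block and 356 without the replicate 3 arrays. Leaving out 1 array gave 550 to 964, with 550 and 622 without blocked 26 h replicates 2 and 1, 592 and 599 without blocked 9 h replicates 2 and 1, and 554 without untreated 26 h replicate 2. With normexp background correction 368 were higher and 414 lower, and with the deposited matrix 422 and 335. With the latter 2 fits, median scaling and quantile normalization, the sign of every list gene called in either contrast was kept, except for 1 of 109 in the time contrast with normexp. The fits without replicate 3 hold fewer arrays. The cause of the other changes was not tested. In the time contrast, 1 astrocyte gene was higher and 1 lower with the replicate block, and 1 sodium channel gene higher and 2 lower, where none was called without it. By mean correlation, each of the 12 arrays lay closest to those sharing its replicate number.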
